A study of Mus musculus with 2 samples.

Results

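Older L1 peaks are the miR-9 chromatin peaks whose deposited repeat annotation reads class LINE and family L1, under any name other than the young mouse L1Md names. They numbered 1638 of 17922 peaks in the deposited list (9.14%, exact 95% interval 8.72 to 9.57%), under 97 repeat names. The study asked where the mature microRNA miR-9 meets chromatin in lung fibroblasts, by ChIRP-seq, in which probes against an RNA pull down the crosslinked DNA near it. The cells were MLg (ATCC CCL-206), an established mouse lung fibroblast line, with no treatment or allele given in the labels. There was 1 miR-9 capture library and 1 input library of the same cells, and peaks were called in the capture over the input. No comparison therefore has a replicate check, and each is made within 1 peak list, whose intervals cover counting error only. Libraries of the control probe were not analysed here.

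L1 elements are autonomous retrotransposons that copy themselves through an RNA, and most copies are truncated at the 5′ end. Successive L1 families replaced each other during mammalian evolution, so an old family is present as diverged, immobile copies, whereas the L1Md families include the elements that still move in mice. In somatic cells most L1 DNA lies in closed chromatin, and L1 sequence is dense on the X chromosome and sparse at promoters.

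By name, the 1638 peaks fell into 4 groups. Names of the Mus group (L1_Mus, L1_Mm and L1VL), which are limited to mice and close relatives, held 532 peaks (32.5%). The Lx names, from an expansion early in murine rodents, held 587 (35.8%). Other rodent names (L1_Mur, L1_Rod and MusHAL1) held 180 (10.99%), and mammal-wide names, mostly L1M, held 339 (20.7%) spread over 63 names. The most frequent names were L1_Mus3 with 165 peaks, L1_Mus1 with 105, Lx9 with 76 and Lx7 with 74, and 26 names with 20 or more peaks held 1248 of the 1638. Young L1Md names held 1659 peaks, so older L1 made up 49.7% (48.0 to 51.4%) of all L1 peaks.

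The names were set against the sequence under the peaks. Of the Mus-group peaks, 508 of 532 (95.5%) shared at least 50 aligned bases at 80% or more identity with another peak of the same name, against 224 of 587 Lx peaks (38.2%), 78 of 180 other rodent peaks (43.3%) and 8 of 339 mammal-wide peaks (2.36%). L1_Mus3 peaks had up to 66 such partners and L1VL2 peaks up to 29, whereas Lx8b peaks had at most 1 and L1M4 peaks had none. The share thus followed the order of ages that the names carry only at its ends, since the other rodent group stood level with Lx. The names also differ in their number of peaks, on which the chance of a partner depends.

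The sequences shown next are short stretches of L1 that match miR-9 itself. The mature miR-9-5p is shown with its seed (bases 2 to 8) in capitals, from RefSeq on GRCm38.p6. Below it stand the segments of L1 that recurred under the largest numbers of older L1 peaks with a match of 8 or more bases, each as the consensus of its peaks over 43 bases, with the longest run of miR-9 bases in capitals (T for U). They were found by grouping the surroundings of the matches and so were chosen on these peaks.
miR-9-5p: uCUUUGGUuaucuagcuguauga
S1, bases 11 to 19, in 52 peaks: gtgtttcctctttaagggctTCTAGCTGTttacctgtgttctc
S2, bases 11 to 18, in 34 peaks: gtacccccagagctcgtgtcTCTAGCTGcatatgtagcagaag
S3, bases 5 to 13, in 29 peaks: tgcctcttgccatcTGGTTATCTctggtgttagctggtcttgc
S4, bases 16 to 23, in 21 peaks: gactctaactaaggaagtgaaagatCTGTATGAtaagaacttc

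S1 came mainly from L1VL2 (17 peaks) and L1VL1 (14 peaks), S2 from L1_Mus1 (25 peaks), S3 from L1VL4 (12 peaks) and S4 from L1_Mus3 (12 peaks). S1, S2 and S4 match the 3′ part of the microRNA and leave the seed free, while S3 takes in the last bases of the seed. Together the 4 segments lay under 123 peaks, among them 21.9% of the 561 peaks that held a match of 8 or more bases.

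Because L1 is repeated, each segment also had many copies outside peaks, which allowed copies with and without the match to be set side by side. Copies were found across the genome by the 32 bases on each side of the match, so the match itself played no part in finding them. Of 1351 copies of S1 with all 9 bases of the match, 43 lay under an older L1 peak (3.18%, 2.31 to 4.26%). Of 7035 copies with 1 mismatch, 13 did (0.185%, 0.0984 to 0.316%), and of 4194 with 2 mismatches, 7 did (0.167%, 0.0671 to 0.344%). At 3 or more mismatches 1 of 8138 did (0.0123%, 0.000311 to 0.0684%), although 42 of these copies lay under a peak of any kind, 41 of them under young L1Md peaks. Under any peak the S1 shares were 3.77%, 0.256%, 0.238% and 0.516% for 0, 1, 2 and 3 or more mismatches. The segments were chosen because older L1 peaks with the match recurred there, which by itself raises the share of copies with the full match, so these shares are a description only. The commonest single change, G15C in the numbering of miR-9 with the microRNA base first, was carried by 5824 copies, of which 7 lay under an older L1 peak (0.120%).

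At S2 and S3, chosen on the match in the same way, the shares for 0 mismatches were also above those for 1, which adds no further support. For S2 the match was taken over the 11 bases from 11 to 21, which the consensus lacks at 1 base. Of 579 copies with all 11 bases, 8 lay under an older L1 peak (1.38%, 0.598 to 2.70%), against 22 of 19429 with 1 mismatch (0.113%, 0.0710 to 0.171%). Nearly all copies of the second kind carried T19C, the base that most S2 peaks have, and all 22 peaks stood on these 18888 copies. S3 had 25 of 1924 copies under a peak with the full match (1.30%, 0.843 to 1.91%) and 7 of 2323 with 1 mismatch (0.301%, 0.121 to 0.620%). At 3 or more mismatches the S3 share was again 1.60%, from 6 of 375 copies (0.589 to 3.45%), so it did not fall steadily.

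For older L1 peaks, the S4 shares for 0 and 1 mismatch had overlapping intervals. Of its 27490 copies with the full 8-base match, 20 lay under an older L1 peak (0.0728%, 0.0444 to 0.112%), while 8 of 8216 with 1 mismatch (0.0974%, 0.0420 to 0.192%) and 7 of 2387 with 2 mismatches (0.293%, 0.118 to 0.603%) did. Under a peak of any kind lay 95 of the copies with the full match (0.346%), 71 of them under young L1Md peaks, and 13 of those with 1 mismatch (0.158%), 2 of them under young L1Md peaks, so the direction was the opposite one over all peaks.

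The shares at S1, S2 and S3 were also taken within subsets of the copies, under the same choice of segments. Among copies whose sequence occurs once in the assembly, the S1 shares were 2.31% (27 of 1170) and 0.156% (9 of 5781) for 0 and 1 mismatch, the S2 shares 0.969% and 0.103%, and the S3 shares 1.09% and 0.274%. Among S1 copies with at most 8 mismatches in the 64 flanking bases the shares were 3.03% (24 of 792) and 0.232% (10 of 4315), and among those with more they were 3.399% (19 of 559) and 0.110% (3 of 2720). S2 copies with at most 8 flank mismatches gave 1.66% and 0.153%, and S3 copies 1.96% and 0 of 465, which allows a share of up to 0.790%. With more than 8 flank mismatches the S2 shares were 0.633% (1 of 158, 0.0160 to 3.48%) and 0.0314% (2 of 6367, 0.00380 to 0.113%), and the S3 shares were 0.952% (12 of 1261, 0.493 to 1.66%) and 0.377% (7 of 1858, 0.152 to 0.775%). The intervals of both pairs overlapped. These 2 ways of dividing the copies were chosen after the first values were seen. The labels describe biotinylated oligos against mature miR-9, and the methods call such probes antisense, so a DNA strand that carries miR-9 bases can pair with the probe as well as its partner strand can pair with the RNA. Capture through the RNA and capture by the probe cannot be told apart in this list.

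**Figure D1:**
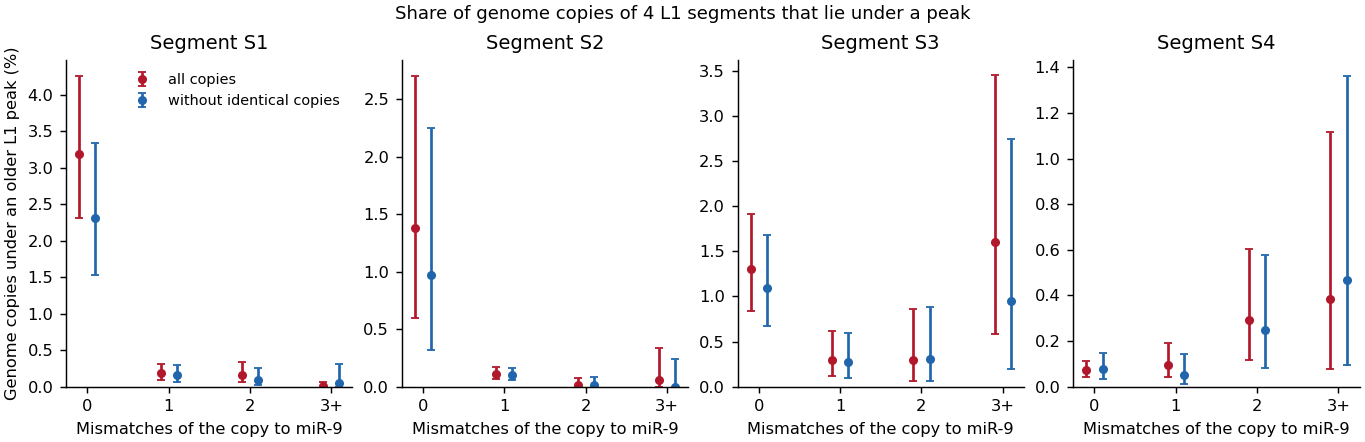
Share of genome copies of segments S1 to S4 that lie under an older L1 peak (y axis, %), by the number of mismatches of the copy to the miR-9 bases of the segment (x axis); red points are all copies, blue points those whose sequence occurs once, and bars are exact 95% binomial intervals. The S1 share fell from 3.18% to 0.185% at the first mismatch, and for older L1 peaks S4 stood at 0.0728% and 0.0974%. The segments were chosen on older L1 peaks with the match, which by itself raises the share with the full match.

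Single old copies carried longer matches than the segments did. The longest run of miR-9 bases within a peak had a median of 7 bases and reached 15, and 19 of the 1638 peaks (1.16%, 0.6998 to 1.81%) held a run of 12 or more. Of all deposited peaks 0.854% held one, and of the other peaks 0.823% (0.690 to 0.974%), so the intervals overlapped. The 23 bases that line up with miR-9 are shown for 5 of the 10 longest runs, in mm10 coordinates and in the direction of the microRNA, with the run in capitals.
Casp4 (chr9:5311019-5311041, - strand): ctacctaaTATCTAGCTGTATGA
A430089I19Rik (chr5:94252743-94252765, + strand): agTTTGGTTATCTAGCcattttg
Pla2g4a (chr1:149942958-149942980, - strand): TCTTTGGTTATCTcatgcatggg
Gpr160 (chr3:30861630-30861652, + strand): catagtatttTCTAGCTGTATGA
4930405A10Rik (chr14:22771711-22771733, - strand): aagacaGTTATCTAGCTGTgaac

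The 15-base run, bases 9 to 23 of miR-9, lay in an Lx5c copy in an intron of Casp4, which codes for an inflammatory caspase that senses bacterial lipopolysaccharide. This peak (chr9:5310439-5311243, 805 bases) was single copy and 1992 bases from the TSS. The 14-base run, bases 3 to 16, stood in Lx5b copies at 4 peaks of chromosome 5, near A430089I19Rik, Gm3139, Gm16367 and Gm3286, with the same 23 bases in each. The words of these 4 peaks occur at a median of 6 places, so reads cannot be assigned to one of them with confidence and they are not 4 independent cases. A run of 13 bases lay in an L1M4a2 copy in Pla2g4a (bases 1 to 13), the cytosolic phospholipase that releases arachidonic acid. Another lay in an Lx8b copy in Gpr160 (bases 11 to 23), an orphan receptor. Further Lx8b runs of 13 bases stood 229029 bases before 4930405A10Rik (bases 7 to 19) and 132289 bases before Tdrd3 (bases 8 to 20), a Tudor domain protein.

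To show what such a peak looks like whole, 2 narrow single-copy peaks are printed, with the run in capitals. The first is the narrow peak with the longest run, an Lx8b copy whose run fills bases 76 to 88 of 148. The second is the narrowest single-copy peak with the S1 match, an L1VL1 copy of 112 bases with the run at bases 45 to 53.
Tdrd3 (chr14:87284221-87284368, - strand): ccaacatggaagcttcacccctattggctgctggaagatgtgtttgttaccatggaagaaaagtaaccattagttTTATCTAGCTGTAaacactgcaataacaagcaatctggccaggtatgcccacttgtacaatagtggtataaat
Gm14403 (chr2:177535390-177535501, + strand): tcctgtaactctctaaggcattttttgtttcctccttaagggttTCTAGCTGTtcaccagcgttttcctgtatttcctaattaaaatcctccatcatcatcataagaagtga

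Over all older L1 peaks, 120 (7.33%, 6.11 to 8.70%) held a 10-base word of miR-9, where 6.04% of all deposited peaks did, and 561 (34.2%, 31.95 to 36.6%) held an 8-base word, where 26.4% did. The other peaks stood at 5.91% and 25.6%, young L1Md peaks at 0.422% and 26.2%, and ERVL-MaLR peaks, old LTR elements, at 5.62% for 10 bases. The 8-base share of older L1 was thus 8.61 percentage points above that of the other peaks, while the 10-base shares had overlapping intervals (5.55 to 6.28% for the other peaks). A longer peak has more room for a word, and 11.8% of older L1 peaks over 250 bases held a 10-base word against 3.01% of narrower ones.

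In windows of a fixed 400 bases at the peak centres, 7.63% of older L1 peaks held a 10-base word (6.39 to 9.02%), against 0.935% of all 6618338 such tiles of the genome and 0.991% of the 1105726 tiles that RefSeq soft-masks for at least 80%. The share was 8.16 times (6.83 to 9.65) that of all tiles, whereas in the other peaks it was 6.18 times (5.81 to 6.58) and in young L1Md peaks 0.644 times (0.309 to 1.18). For words of 12 bases it was 23.3 times (14.1 to 36.3) and for 8 bases 2.19 times (2.05 to 2.32). An 8-base word was in 37.7% of older L1 windows, 17.2% of all tiles and 22.6% of the soft-masked tiles, so the 8-base excess is smaller over the latter. ERVL-MaLR windows stood at 6.41 times (4.42 to 8.93) for 10 bases, which overlaps older L1. For 8 and 10 bases the older L1 interval lay above that of all other peaks, for 12 bases it overlapped (13.3 to 18.9), and the L1Md interval for 10 bases included 1. The soft-masked tiles were taken without regard to repeat name, so they are not a sample of older L1.

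Each of the 4 name groups exceeded the tiles for 10-base words. The Lx windows did so 9.65 times (7.31 to 12.4), mammal-wide windows 9.78 times (6.73 to 13.6), other rodent windows 7.72 times (4.17 to 12.9) and Mus-group windows 5.63 times (3.77 to 8.04). For 8-base words the Mus group stood highest, at 44.2% of windows, or 2.56 times (2.31 to 2.81). This group holds most of the peaks of each of the segments S1, S2, S3 and S4. Among single names, 10-base words were found in 10 of 28 Lx5b peaks, 4 of them the repeated loci of chromosome 5, in 9 of 76 Lx9 peaks and in none of 49 L1VL2 peaks, although 29 of the 49 L1VL2 peaks (59.2%) held an 8-base word.

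Along the microRNA, the word that starts at base 11 was the most frequent in older L1 windows, at 2.08% (1.44 to 2.89%, 34 windows), against 0.112% of tiles and 0.946% (0.803 to 1.11%) of other peaks. Words that start at base 10 were in 1.77% (1.19 to 2.53%) against 1.04% (0.888 to 1.21%) of the other peaks, so older L1 intervals barely met those of other peaks there. The words at the 5′ end that cover the whole seed, from bases 1 and 2, were in 0.427% and 0.488% of windows, and the intervals overlapped those of other peaks. Relative to tiles, the highest ratio was at base 7, 32.4 times, where the word is rare in the genome (0.0302%). Of 122 runs of 10 or more bases, 77 (63.1%, 53.9 to 71.7%) lay within 0.25 of the peak's width from its middle. Of 706 runs of 8 or more bases, 55.7% (51.9 to 59.4%) did. Position was taken at the centre of the 23 bases that line up with miR-9, not of the run itself. This central stretch extends to both sides of the middle and so takes in a large part of each peak. The share that placement alone would give was not computed, nor was that of all other peaks.

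**Figure D2:**
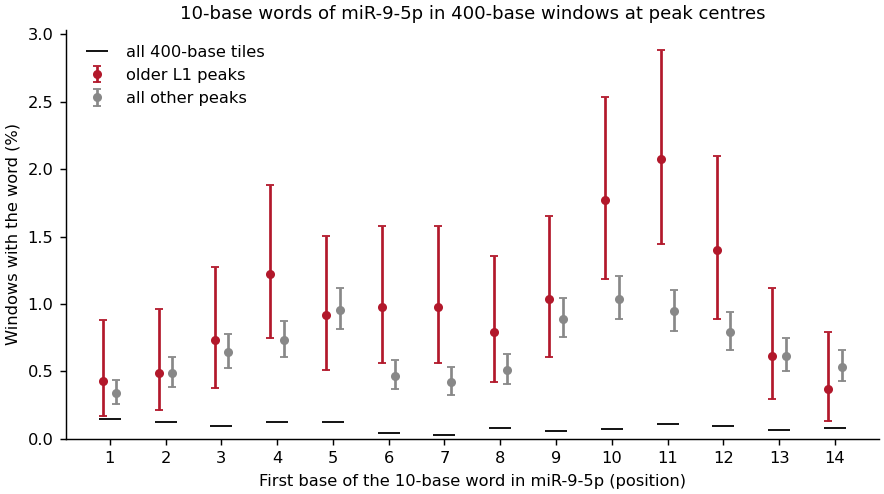
Share of 400-base windows at peak centres (y axis, %) that hold each 10-base word of miR-9-5p, by the first base of the word (x axis); red points are the 1638 older L1 peaks, grey points all other peaks, bars exact 95% binomial intervals, and black dashes all genome tiles. Older L1 peaks reached 2.08% at base 11 and lay above the tiles at every position.

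Copy number differed widely between the name groups. Peaks count as high copy here if the median number of genome places of their 32-base words was 5 or above, which held for 418 older L1 peaks (25.5%, 23.4 to 27.7%), with a share of 21.6% in all deposited peaks. In young L1Md peaks the share was 96.7% (95.8 to 97.5%). Within older L1 it was 58.5% in the Mus group, 11.6% in Lx, 19.4% in other rodent names and 1.18% (4 of 339) in mammal-wide names. L1_Mm peaks had a median of 898.5 copies, L1_Mus1 peaks 21.5 and L1_Mus3 peaks 6, and Lx7 and Lx9 peaks held no high-copy sequence. In all, 1086 older L1 peaks (66.3%) had a median of 1 copy, as did 73.9% of all deposited peaks. A median of 1 leaves room for repeated words within a peak, and the placing of reads was not examined.

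Low-complexity and G-rich sequence was counted in the same peaks. A G-quadruplex motif (on either strand, 4 G runs, each of 3 or longer, separated by 1 to 7 bases) was in 82 older L1 peaks (5.01%, 4.00 to 6.18%), where 5.65% of all deposited peaks held one. At fixed windows the share was 6.17%, or 0.926 times (0.758 to 1.12) that of all tiles. CA or TG runs of 10 or more bases were in 126 peaks (7.69%, 6.45 to 9.09%), below the 16.6% of all deposited peaks, with 1.13% in the Mus group and 13.6% in mammal-wide names. Runs of 10 or more A or T were in 11.1%, close to 11.9% of the other peaks. At fixed windows CA or TG runs were 1.18 times (1.003 to 1.38) and A or T runs 1.44 times (1.26 to 1.65) as frequent as in all tiles, against 2.42 and 1.44 times for all other peaks. The median GC content was 38.2% in older L1 peaks, 39.1% in young L1Md peaks, 44.1% in ERVL-MaLR peaks and 42.6% in all other peaks, and it was lowest, at 34.8%, in the other rodent names.

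Peak width fell into a narrow and a wide class in every name group. Older L1 peaks had quartiles of 154, 218 and 565 bases, and 808 of them (49.3%, 46.9 to 51.8%) were over 250 bases, against 53.0% (52.2 to 53.8%) of all other peaks and 48.9% of young L1Md peaks. The narrow class had a median of 154 bases and the wide class of 566 bases, and these medians differed little between groups, with 153 to 156 and 558 to 575 bases. The median over both classes, 187.5 bases in the Mus group, 178 in Lx, 362 in other rodent names and 449 in mammal-wide names, reflects how many peaks of each class a group had. The list merges calls made with different fragment settings, and the score of every peak is 0, so width is the only size it gives and need not measure binding.

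**Figure D3:**
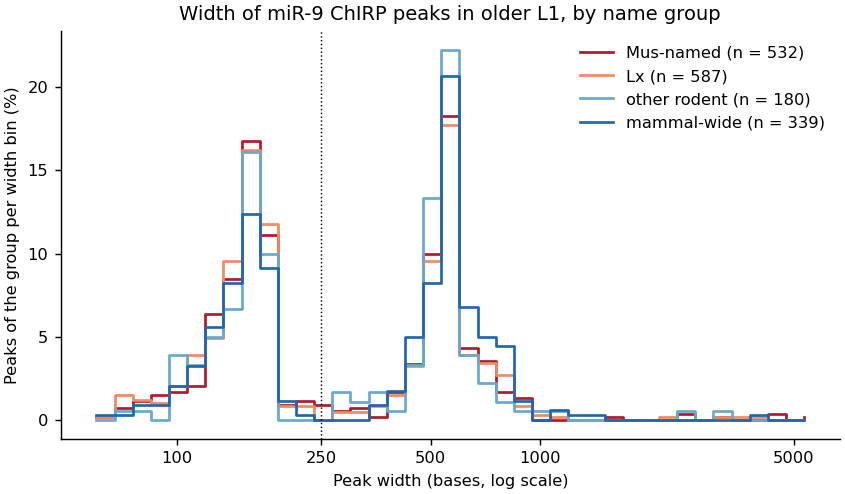
Distribution of peak width (x axis, bases, log scale) in the 4 name groups of older L1, as the share of the group's peaks per width bin (y axis, %); the dotted line marks 250 bases. All 4 groups show a narrow class with medians of 153 to 156 bases and a wide class with medians of 558 to 575 bases.

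The widest peak was an L1_Mm copy of 5472 bases on the Y chromosome near G530011O06Rik, followed by L1VL1 (4749 bases, near Gm21944) and L1_Mus3 (4407 bases, near 6820431F20Rik) on chromosome 8. Of the 10 widest, 7 had a median of 5 or more copies. The widest single-copy peaks were an Lx5 copy of 4217 bases in an intron of Tnpo1, which codes for the nuclear import receptor transportin, and an Lx7 copy of 3680 bases 11741 bases before Smim27. An L1MA4A peak of 1442 bases stood beside the latter, 14158 bases before Ddx58, the gene of the cytosolic RNA sensor RIG-I. Other wide single-copy peaks were L1_Rod near Imp4 (2444 bases, 7077 bases from the TSS), a factor of ribosomal RNA processing, and L1M2 in Etaa1 (1310 bases), an activator of the ATR kinase.

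Older L1 peaks lay farther from a TSS, by the median distance, than all other peaks did. By the deposited annotation 573 were in introns (35.0%, 32.7 to 37.3%) and 1065 were intergenic, while 42.8% of all other peaks and 18.8% of young L1Md peaks were in introns. The median distance to a TSS was 54199 bases, between 27675 bases for all other peaks and 115767 bases for young L1Md peaks. Over 100 kb from a TSS lay 578 peaks (35.3%, 33.0 to 37.7%), against 22.4% of all other and 53.5% of young L1Md peaks. Only 13 (0.794%, 0.423 to 1.35%) lay within 2 kb, against 9.06% of all other peaks, which is partly set by the annotation since a peak called promoter carries no repeat name. The intron share went from 27.3% (23.5 to 31.3%) in the Mus group to 48.4% (42.9 to 53.8%) in mammal-wide names, with Lx at 35.6% and other rodent names at 30.6%. The share over 100 kb from a TSS was 39.5% in the Mus group and 26.5% in mammal-wide names.

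**Figure D4:**
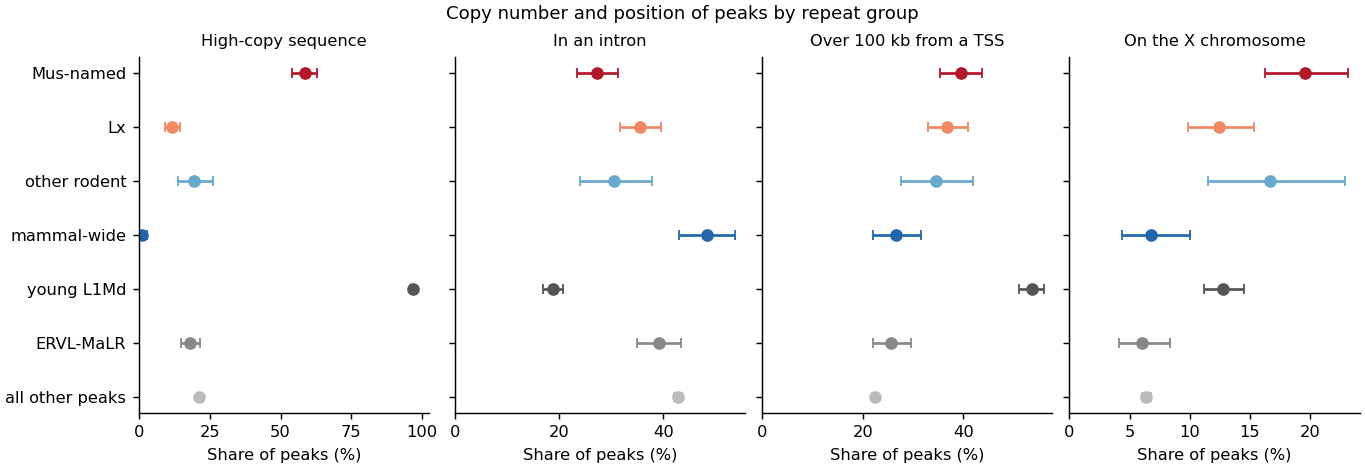
Shares of peaks (x axes, %) with high-copy sequence, in an intron, over 100 kb from a TSS and on the X chromosome, for the 4 name groups of older L1 and for young L1Md, ERVL-MaLR and all other peaks (rows); points are shares and bars exact 95% binomial intervals. High-copy sequence spans 1.18% to 58.5% among the older L1 groups.

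The 10 peaks nearest a TSS were assigned to Zfp51 (907 bases), Zfp948 (1015), 1700028E10Rik (1083), Mir463 (1165), Cpne3 (1182), 4931408D14Rik (1347), Epm2a (1511), Arsk (1610), Zfp248 (1647) and Gm4312 (1685). Zfp51, Zfp948 and Zfp248 code for zinc finger proteins, Cpne3 for a copine, Epm2a for the glycogen phosphatase laforin and Arsk for a sulfatase. The first pair, on chromosome 17, are both Lx5b copies in introns, of 626 and 372 bases. Of the 10, all but the Gm4312 peak (19 copies) had fewer than 5 copies.

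The X chromosome stood apart. It held 230 older L1 peaks, or 1.34 per Mb (Poisson interval 1.18 to 1.53), against 0.571 per Mb over the autosomes, a ratio of 2.36 (2.04 to 2.71). Older L1 made up 18.1% of the peaks on X (16.03 to 20.3%), and on no autosome did the share exceed 11.5%. Young L1Md peaks had a like ratio of 2.13 (1.84 to 2.46), whereas all peaks outside older L1 stood at 0.986 (0.925 to 1.05). Among the autosomes the density of older L1 peaks ran from 0.175 per Mb on chromosome 12 and 0.214 on chromosome 16 to 0.975 on chromosome 6, and the density of all peaks on these 3 was 2.47, 3.25 and 11.4 per Mb.

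The X ratio went with the name group and the copy number. It was 3.52 (2.81 to 4.37) in the Mus group, 2.90 (1.89 to 4.31) in other rodent names, 2.05 (1.58 to 2.62) in Lx and 1.05 (0.655 to 1.60) in mammal-wide names. High-copy sequence was in 47.0% of the older L1 peaks on X and in 21.9% of those on autosomes, and the ratio was 5.05 (4.02 to 6.31) for high-copy peaks and 1.60 (1.32 to 1.93) for the rest. A higher ratio in high-copy sequence was also seen outside older L1, at 2.21 (1.996 to 2.44) against 0.690 (0.634 to 0.750) in all other peaks and 2.67 (1.43 to 4.66) against 0.581 (0.336 to 0.942) in ERVL-MaLR peaks. Of the genome copies of S1 to S4, 11.7 to 12.1% lie on X. Of the copies under older L1 peaks, 9 of 64 at S1, 10 of 32 at S2, 7 of 41 at S3 and 14 of 38 at S4 were on X. The part that the amount of L1 on X and its amplified gene families have in the ratio was not tested.

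**Figure D5:**
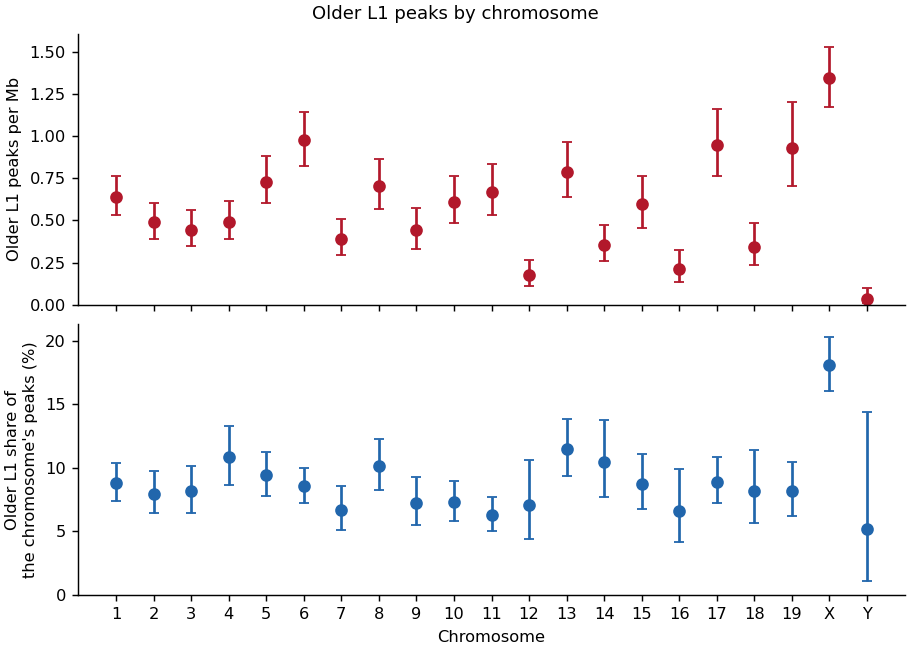
Older L1 peaks per Mb with exact Poisson 95% intervals (upper panel) and as a share of all peaks of the chromosome with exact binomial 95% intervals (lower panel, %), by chromosome (x axis). X stands at 1.34 per Mb and 18.1%.

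Most genes had a single older L1 peak, and several of those with the most peaks had them in high-copy sequence. The 1638 peaks were assigned to 1321 named genes, of which 1111 had 1, and 9 peaks had no gene name. LOC108168459 on X had 14, Gm21119 and 6820431F20Rik on chromosome 8 had 10 each, Prl2c2 and Gm10058 had 6, and Gm10033, Prl2c4 and Btbd35f20 had 5. High-copy sequence was under 14 of 14, 9 of 10 and 10 of 10 peaks of the first 3. The Btbd35f genes, an amplified family of X with BTB domains, had 33 peaks over 17 genes. The Prl2c genes code for proliferins, prolactin-like hormones of the placenta, and only 1 of 6 peaks at Prl2c2 and 1 of 5 at Prl2c4 were high copy. Their median number of copies was still 2 at both genes, so reads there can fit more than 1 place. The next in order, A530072M11Rik and 1700017L05Rik, had 4 peaks each at distances of at least 192468 and 286828 bases. A530072M11Rik, Ndufa4, Klra2, Lrmp and Gm19689 had 4 peaks each and none in high-copy sequence. The median number of copies was 2 at Ndufa4 and Klra2 and 1 at the others.

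Older L1 peaks, like the peaks of the whole list, were mostly isolated. The nearest other peak of any kind was at a median of 39095 bases, against 31181 bases for all other peaks and 62426 for young L1Md peaks. For 1220 peaks (74.5%, 72.3 to 76.6%) none lay within the default stitching distance of the ROSE program. This share was 68.7% in all other peaks, 72.8% in ERVL-MaLR peaks and 83.1% in young L1Md peaks. Chains of 3 or more peaks held 170 older L1 peaks (10.4%, 8.94 to 11.96%), against 14.3% of all other peaks. Of all chains, 9 held 3 or more older L1 peaks. The largest, with 5 at Gm21119 and 4930467E23Rik on chromosome 8, was high copy throughout. Those at Prl2c2 and at Lrmp, which codes for a lymphoid membrane protein, held 4 older L1 peaks with none at 5 or more copies. The older L1 peaks of Prl2c2 had a median of 2 copies and those of Lrmp 1.

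For listed genes of the fibroblast, the shares of older L1 peaks were set beside those of all other peaks. Assigned to the 24 genes of TGFB signalling were 2 older L1 peaks (0.122% of older L1, against 0.270% of all other peaks), 785591 and 1441311 bases from the TSS of the activin receptor gene Acvr2a. The 25 extracellular matrix genes had 6 (0.366% against 0.184%), in introns of the collagen gene Col14a1 (2 peaks), in an intron near the versican gene Vcan and in the intergenic space near the collagen gene Col3a1 (2 peaks) and the laminin gene Lama2. The 20 lung fibroblast regulators and receptors had 4 (0.244% against 0.172%), with 2 each at the transcription factor genes Twist1 and Runx2, of which both at Twist1 and 1 at Runx2 were high copy. The 20 mRNA targets of cytoplasmic miR-9 had 2 (0.122% against 0.282%), in an intron near Foxp2 and in the intergenic space near Foxo3, both in mammal-wide names. All these intervals overlapped those of the other peaks.

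The list of 30 long synaptic and adhesion genes had 23 peaks at 15 genes (1.404%, 0.892 to 2.10%, against 1.03%, 0.877 to 1.19%). They included Dmd with 3 peaks, and Cntnap2, Grik2, Csmd3, Cdh12, Cdh18 and Lrrc4c with 2 each. Genes named Olfr, the olfactory receptors, had 24 peaks (1.47%, 0.941 to 2.17%), against 0.7001% (0.578 to 0.840%) of all other peaks, and vomeronasal receptor genes had 14 (0.855% against 0.608%). The Olfr share was the only one among these lists whose interval did not meet that of the other peaks.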

How the data were processed

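ChIRP-seq of MLg cells was used from 1 miR-9 capture library, with 1 input library behind the calls. Per the study's methods and the submitters' processing notes, single-end reads were trimmed (Trimmomatic 0.36), aligned to mm10 with Bowtie2, called with MACS over the input, merged with bedtools and annotated with HOMER. The authors deposited 1 list of merged peaks with other values (positions, annotation) and a score of 0 in every peak, so depth was unknown. Cells of the annotation of 8093 peaks, broken over several fields, were joined. Older L1 peaks and the gene lists were chosen with earlier results of these data known.

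GRCm38.p6, the assembly behind mm10, gave sequences (NumPy 2.4.6, pandas 2.3.3, Numba 0.67.0). Words were searched on both strands. Recurring segments needed 15 peaks with 70% identity over 43 bases, and genome copies allowed 16 mismatches over 64 flanking bases. Shared sequence within a name came from blastn 2.17.0+. Shares have Clopper-Pearson and densities Poisson 95% intervals (SciPy 1.17.1). The code was tested on simulated data. Genes named were those with most peaks (up to 10), of the 10 nearest to a TSS, of the 10 widest and 10 longest runs, the 3 widest per name group, and listed genes with a peak (up to 30). Some genes under this rule are not reported here. Alternatives were leaving out high-copy or narrow peaks, keeping 1 peak per chain or mammal-wide names alone, and other thresholds.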

Additional observations from a re-analysis of the deposited data

How the results depend on the processing

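Of 48 other settings, 21 left a value within the 95% interval of the main one. Leaving out high-copy peaks gave 8.68% for the share of peaks in older L1, 37.7% for introns, 9.84% for CA or TG runs and 1.60 for the X ratio. Over peaks wider than 250 bases these values were 8.56% for the share of peaks, 566 bases for the median width, 38.4% for introns, 30.4% over 100 kb from a TSS, 11.8% for a 10-base word, 8.42% for a G-quadruplex motif and 11.1% for CA or TG runs. Mammal-wide names alone gave 1.89% of all peaks, a median width of 449 bases, 55.5% over 250 bases, 48.4% in introns, 26.5% over 100 kb, 9.44% with a 10-base word, 2.65% with a G-quadruplex motif, 13.6% with CA or TG runs, 1.18% with high-copy sequence and an X ratio of 1.05. Keeping 1 peak per chain moved none of the 10 values. Words of 8 and 12 bases gave 34.2% and 1.16%, CA or TG runs of 20 bases 5.07%, a limit of 50 kb 52.4%, and copy thresholds of 2 and 20 gave 33.7% and 13.4%. Introns recomputed from the RefSeq models gave 34.2%, with 98.0% of features equal to those deposited. The median width without high-copy peaks was 327 bases, inside the interval of the main value, which spans the gap between the width classes. Of 12 alternatives for the segments, chosen after seeing the data, 10 stayed within the main interval, and the exceptions were exact S1 copies that occur once (2.31%) and exact S3 copies with close flanks (1.96%). No paired analysis was possible because there was 1 capture library and 1 input library. Without counts, heights or replicates, a peak's strength, its error and its difference from a control probe could not be given, and a read that fits several L1 copies is placed at 1 of them, so high-copy peaks may mark another copy.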

Other observations

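Across all names, the most frequent 12-base words under older L1 peaks were CA or TG repeats, in 110 peaks (6.72%), and A or T runs, in 104 peaks (6.35%). Neither is a mark of older L1. At 10 or more bases, CA or TG runs were in 7.69% of older L1 peaks against 16.6% of all deposited peaks. For A or T runs the shares were 11.1% and 11.8%. The most frequent word of another kind was in 61 peaks (3.72%). The 1-Mb bins with most older L1 peaks were 20 to 21 Mb of chromosome 8, with 19, of which 18 were high copy, and 12 to 13 Mb of chromosome 13, the Prl2c genes, with 10, of which 2 were.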
